A study of Mus musculus with 31 samples.

Results

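Epithelial cells are held together by junctions and filled with keratin filaments. Genes for those structures and for surface protease inhibitors, 10 in all, were followed through 31 mouse RNA-seq libraries of blood and endothelial development. The genes, taken by name from the 20314 in the deposited tables, were Epcam, Cdh1, Krt8, Krt18, Krt19, Cldn4, Cldn6, Cldn7, Spint1 and Spint2. The study compared expandable hemangioblasts (eHBs), which are cultured lines able to give endothelium and blood, with their progeny, with pluripotent and mesodermal cells, and with primary cells. Total RNA was sequenced on an Illumina instrument, and levels are given in TPM, a transcript abundance corrected for transcript length and for the size of the library.

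Primary hematopoietic stem cells (HSCs) of E14.5 embryos were sorted as CD45-positive, CD201-positive, CD150-positive and CD48-negative and gave 1 library. Blood cultures of 5 eHB lines received CHIR99021, SCF, IL-3 and Flt3L without doxycycline in 1.5% oxygen, and were sorted as VE-cadherin-positive CD45-positive cells on day 3 (n = 5) or VE-cadherin-positive CD45-negative cells on day 2 (n = 5). Endothelial cultures were made from the same 5 lines by 3 days without doxycycline in VEGF, 8-bromo-cyclic AMP, SB431542, BMP4 and FGF2, and were not sorted (n = 5). The eHB lines themselves (n = 5) all grew in N2B27 medium with FGF2 and 2 µg/mL doxycycline. Line M5 came from embryonic fibroblasts and lines FL4 and FL10 from fetal liver, whereas those named RB3.6.5 and RB4.6.9 were derived from ES cells and also received VEGF, 8-bromo-cyclic AMP, the TGF-beta receptor inhibitor SB431542 and BMP4. Kdr-positive mesoderm came from embryonic stem (ES) cell lines RB2, RB3 and RB4 after 4 days of differentiation, the last 2 of them with Activin A, CHIR99021, BMP4 and FGF2, and was sorted for the VEGF receptor Kdr (n = 3). The ES cells of the same 3 lines were grown on Matrigel without their feeder cells in N2B27 medium with 3 µM CHIR99021, an inhibitor of GSK3, the MEK inhibitor PD0325901 and LIF (n = 3). Primary endothelium of E11.5 yolk sac and of E11.5 embryo was sorted for VE-cadherin and Pecam1 (n = 2 each).

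E-cadherin (Cdh1) and Epcam join neighbouring epithelial cells at the membrane, keratin 8 pairs with keratin 18 or 19 to build the filaments of simple epithelia, and claudins seal tight junctions. Spint1 and Spint2 are membrane-bound Kunitz inhibitors that restrain the serine proteases matriptase (St14), prostasin (Prss8) and hepsin (Hpn) at epithelial surfaces. Pluripotent cells of the early embryo are themselves epithelial and carry E-cadherin, mesoderm forms by an epithelial to mesenchymal transition in which repressors such as Snail and Zeb proteins bind E-boxes in epithelial promoters, and the yolk sac is covered by an epithelium, the visceral endoderm, next to its vessels.

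By GENCODE on GRCm38, Epcam lay on the forward strand of chromosome 17 at 87635979 to 87651129 and Cdh1 on the forward strand of chromosome 8 at 106603351 to 106670246. Krt8, at 101996698 to 102004482 on the reverse strand of chromosome 15, and Krt18, at 102028180 to 102032027 on its forward strand, were neighbours transcribed away from each other, while Krt19 lay on the reverse strand of chromosome 11 at 100140810 to 100148665. Cldn4 was at 134945119 to 134946934 on the reverse strand of chromosome 5, Cldn6 at 23679249 to 23682446 on the forward strand of chromosome 17, and Cldn7 at 69964779 to 69967885 on the forward strand of chromosome 11. Spint1 was at 119237362 to 119249527 on the forward strand of chromosome 2 and Spint2 at 29256323 to 29281912 on the reverse strand of chromosome 7. Krt8 shares positions with the long non-coding gene Gm36026 on the opposite strand. No source used here gives the strand setting of the counting, so reads of Gm36026 cannot be told apart from those of Krt8. Krt8 also has an annotated processed pseudogene, Krt8-ps, and whether its reads were counted with Krt8 is not given in those sources.

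Promoters of 5 of the genes are shown. Each of these genes rose in yolk sac against embryo endothelium and fell in eHBs against mesoderm, and Spint1 also rose in day 3 blood. Cldn6 and Cldn7, whose windows are not printed, moved the same way in the yolk sac and eHB comparisons. RefSeq on GRCm38.p6 gave a window of 250 bases before to 50 bases after the start for 8 of the 10 genes. The windows printed were chr17:87635729-87636028 (forward strand) for Epcam, chr15:102004293-102004592 (reverse strand) for Krt8, chr15:102027966-102028265 (forward strand) for Krt18, chr5:134946885-134947184 (reverse strand) for Cldn4 and chr2:119237110-119237409 (forward strand) for Spint1. Capitals mark CAGGTG or its reverse complement CACCTG, the E-box that Zeb and Snail proteins bind, and ACCGGT, the centre of the recognition sequence of Grainyhead factors, which is its own reverse complement.
Epcam: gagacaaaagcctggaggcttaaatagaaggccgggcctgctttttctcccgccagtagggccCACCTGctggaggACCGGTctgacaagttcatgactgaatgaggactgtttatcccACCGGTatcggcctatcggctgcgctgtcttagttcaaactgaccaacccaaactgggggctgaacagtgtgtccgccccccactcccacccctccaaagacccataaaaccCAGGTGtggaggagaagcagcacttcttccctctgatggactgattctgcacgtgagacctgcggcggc
Krt8: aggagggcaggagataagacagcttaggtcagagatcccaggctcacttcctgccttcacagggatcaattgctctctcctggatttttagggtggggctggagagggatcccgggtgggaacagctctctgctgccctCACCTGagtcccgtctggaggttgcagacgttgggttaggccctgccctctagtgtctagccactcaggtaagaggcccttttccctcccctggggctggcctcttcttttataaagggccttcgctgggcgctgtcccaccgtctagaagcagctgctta
Krt18: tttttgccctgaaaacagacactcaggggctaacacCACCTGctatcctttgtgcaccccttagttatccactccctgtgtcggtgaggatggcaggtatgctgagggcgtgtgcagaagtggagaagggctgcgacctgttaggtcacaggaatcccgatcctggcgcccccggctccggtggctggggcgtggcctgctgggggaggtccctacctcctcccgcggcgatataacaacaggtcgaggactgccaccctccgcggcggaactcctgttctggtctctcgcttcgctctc
Cldn4: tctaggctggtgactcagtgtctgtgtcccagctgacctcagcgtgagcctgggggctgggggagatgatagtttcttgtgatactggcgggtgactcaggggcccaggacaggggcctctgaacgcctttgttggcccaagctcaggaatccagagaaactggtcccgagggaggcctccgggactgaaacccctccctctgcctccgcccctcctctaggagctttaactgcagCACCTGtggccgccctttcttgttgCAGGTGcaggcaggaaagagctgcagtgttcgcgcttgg
Spint1: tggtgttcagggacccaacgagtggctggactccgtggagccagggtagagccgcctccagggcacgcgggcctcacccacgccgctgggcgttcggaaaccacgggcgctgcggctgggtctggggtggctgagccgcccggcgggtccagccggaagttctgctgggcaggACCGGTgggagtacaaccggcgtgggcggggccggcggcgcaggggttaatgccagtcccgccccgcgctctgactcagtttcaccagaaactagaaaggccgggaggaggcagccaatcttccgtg
Both strands were searched. The E-box letters were present in 7 of the 8 genes (Epcam, Krt8, Krt18, Cldn4, Cldn6, Cldn7 and Spint2), beside 22.6% of 27025 genes with a promoter window in RefSeq; for Cldn7 they were in the second of its 2 windows. In Epcam they began 187 and 19 bases before the start, in Krt8 111 bases before, in Krt18 214 bases before, and in Cldn4 14 bases before and at base 12 after it. ACCGGT was found in Epcam, at 174 and 131 bases before the start, and in Spint1, at 77 bases before it, and in 2.68% of all genes with a window. No match of one motif overlapped a match of the other.

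Library totals ran from 9424412 to 79497758 expected counts, so 1 count weighs most in the day 3 blood library of RB3.6.5 and least in the HSC library. The labels were checked against defining genes. Cdh5, the gene of VE-cadherin, averaged 2890 TPM in endothelial cultures, 1618 TPM in yolk sac and 1294 TPM in embryo endothelium, against 0.10 TPM in mesoderm. Ptprc, the gene of CD45, averaged 68.8 TPM in day 3 blood, against 0.851 TPM in day 2 blood, and Kdr averaged 79.9 TPM in mesoderm cells, against 0.109 TPM in ES cells. The yolk sac libraries, although sorted on endothelial surface proteins, held genes of visceral endoderm at levels given with that comparison.

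**Figure D1:**
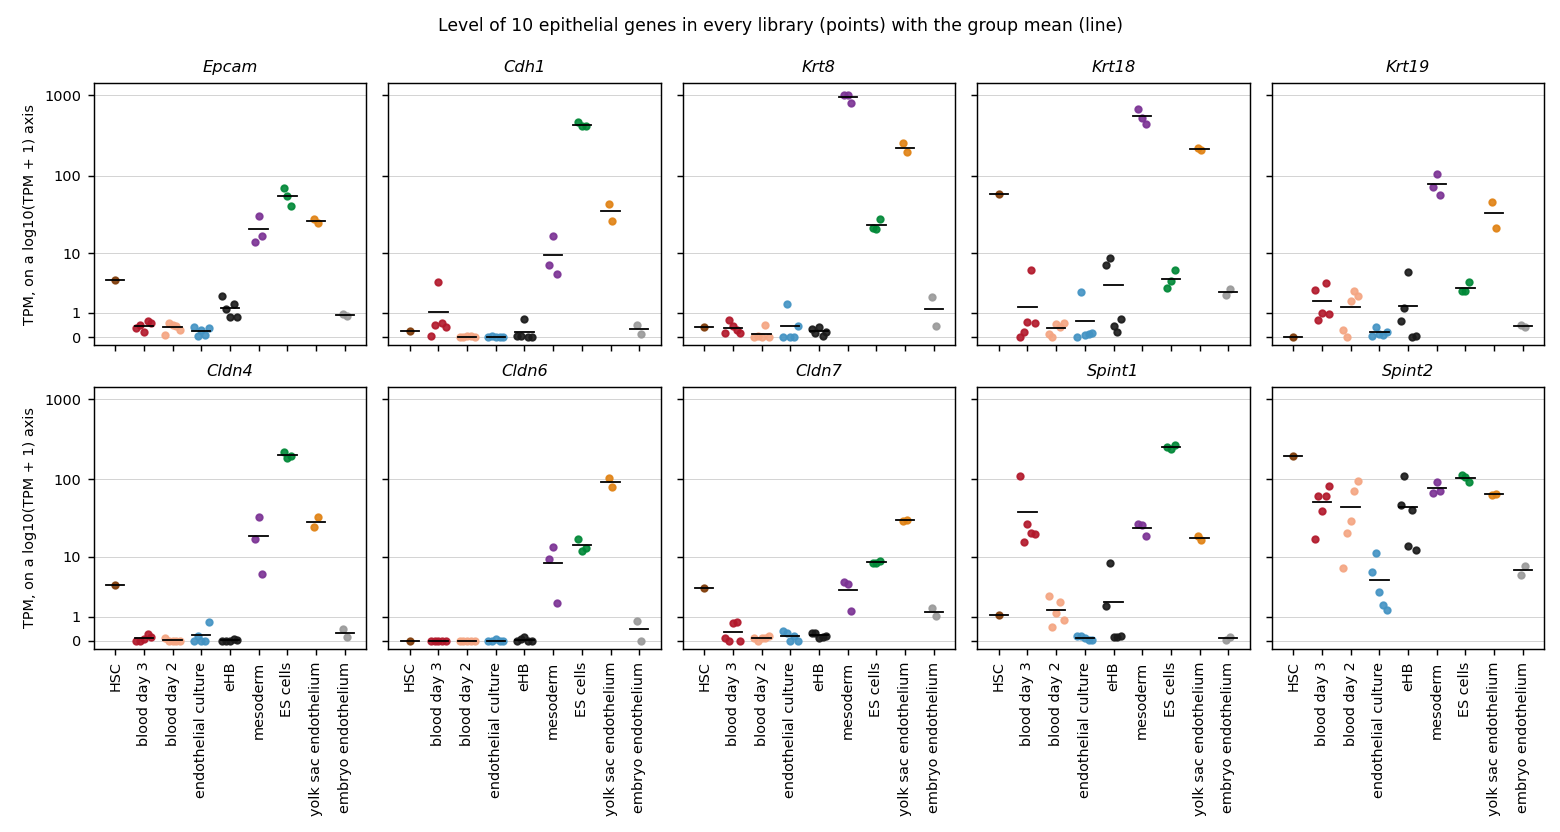
TPM of each of the 10 genes on a log10(TPM + 1) axis in all 31 libraries, 1 point per library, with the mean of each of the 9 groups as a line. ES cells, mesoderm and yolk sac libraries hold most of the high values, endothelial cultures, eHBs and embryo endothelium are at most 8.69 TPM for 9 of the genes, and Spint2 is above 1 TPM in every library.

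The summed level of the 10 genes was highest in 3 of the 9 groups, each with its own mix of genes, as the plot of levels by library shows. In that sum mesoderm held 1421 to 1903 TPM, ES cells 1047 to 1173 TPM and yolk sac endothelium 702 to 832 TPM. The keratins Krt8, Krt18 and Krt19 made up 88.3% to 92.3% of that sum in mesoderm, 60.3% to 62.2% in yolk sac endothelium and 2.34% to 3.52% in ES cells. In ES cells the sum was mainly Cdh1, Spint1 and Cldn4. The sum was 266 TPM in HSCs, 74.2 to 130 TPM in day 3 blood, 10.2 to 100.03 TPM in day 2 blood, 14.3 to 129 TPM in eHBs, 13.5 to 14.54 TPM in embryo endothelium and 2.23 to 16.6 TPM in endothelial cultures. Spint2 alone was 72.9% of the sum in HSCs and 64.5% to 95.2% of it in eHBs.

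By group mean, ES cells ranked first for the adhesion genes Epcam and Cdh1, for Cldn4 and for Spint1. Mesoderm ranked first for all 3 keratins, yolk sac endothelium for Cldn6 and Cldn7, and the HSC library for Spint2. Behind the first group, yolk sac endothelium and mesoderm overlapped for Epcam and Cldn4, and ES cells and mesoderm overlapped for Cldn6. At the low end, eHBs, blood cultures and endothelial cultures overlapped their neighbours in the order for every claudin, except that day 3 blood, at most 0.704 TPM of Cldn7, lay under embryo endothelium at 1.04 TPM or more, and endothelial cultures had the lowest mean for Epcam, Cdh1 and Spint2. Krt8 was at least 20.7 TPM in ES cells, mesoderm and yolk sac endothelium and at most 2.13 TPM in every other library. The first place was held by the same group for 10 of 10 genes when levels were read as log2 counts scaled to library size.

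Mesoderm was set against the ES cells it was made from, to ask what changed on leaving pluripotency. Keratin genes were far higher in mesoderm, whereas Cdh1, Epcam, Cldn4, Cldn7 and Spint1 were lower, so the 10 genes did not move as a block. In edgeR's quasi-likelihood test with Benjamini-Hochberg adjustment over 13539 genes, 3 members rose and 5 fell, while 39.1% of all genes tested rose and 40.0% fell. Non-overlapping TPM values, described gene by gene below, were found for 81.4% of all genes. The median log2 fold change was -0.73 over the 10 members and -0.00 over all genes. Genes of pluripotent cells summed to 403 to 603 TPM in mesoderm, against 8556 to 8647 TPM in ES cells, and all 8 of the list fell, with Dppa3 at 0 in every mesoderm library. Mesothelial genes summed to 31.6 to 34.7 TPM in mesoderm, against 7.42 to 11.7 TPM in ES cells, and fibroblast genes to 41.9 to 81.8 TPM in mesoderm, against 4.41 to 11.9 TPM in ES cells. Of each of these lists 3 of the 4 genes tested rose and 1 fell. The part of such cells in the members' differences was not tested. In such bulk samples, fewer cells of a type and less RNA per cell cannot be told apart.

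E-cadherin showed the deepest fall. Cdh1 stood at 6.76, 16.7 and 5.10 TPM in mesoderm from RB2, RB3 and RB4, against 462, 412 and 419 TPM in the ES cells of those lines. Even the highest mesoderm library was far under the lowest ES library, and the log2 fold change was -5.21 ± 0.40 (SE; edgeR adjusted p = 9.2e-06). Cdh2, the N-cadherin gene of mesenchymal and neural cells, averaged 85.8 ± 27.5 TPM in mesoderm cells and 4.91 ± 0.894 TPM in ES cells (SD, n = 3 each), a log2 fold change of 4.44. Epcam had 14.2, 30.6 and 17.2 TPM in mesoderm cells, against 69.2, 55.9 and 41.7 TPM in ES cells. Its groups did not overlap and its log2 fold change was -1.12 ± 0.26 (SE; edgeR adjusted p = 0.00376), a much smaller step than that of Cdh1. With all 9 groups in 1 fit the Epcam call was lost (adjusted p = 0.134).

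All 3 keratin genes went the other way. Krt8 reached 1007, 1017 and 804 TPM in mesoderm from RB2, RB3 and RB4, against 21.8, 20.7 and 28.4 TPM in ES cells. Krt18 reached 678, 519 and 438 TPM in mesoderm cells, against 3.02, 3.94 and 5.76 TPM in ES cells. Krt19 stood at 71.0, 105 and 57.7 TPM in mesoderm cells, against 2.70, 2.76 and 3.85 TPM in ES cells. No mesoderm library came near an ES library for any of them. The log2 fold changes were 5.65 ± 0.16 for Krt8, 7.34 ± 0.29 for Krt18 and 4.97 ± 0.23 for Krt19 (SE; edgeR adjusted p = 1.11e-08, 1.45e-07 and 1.86e-07). The ratio of Krt8 to Krt18, in TPM, was 1.49 to 1.96 in mesoderm and 4.93 to 7.21 in ES cells.

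**Figure D2:**
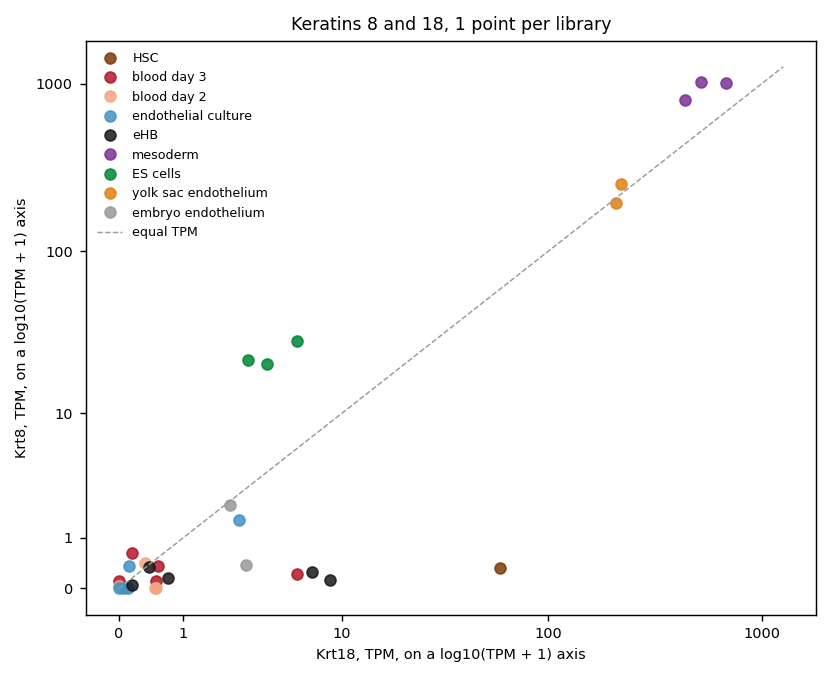
Krt8 against Krt18 in TPM, both on log10(TPM + 1) axes, 1 point per library coloured by group, with a dashed line of equal TPM. Mesoderm and yolk sac libraries sit high and near the line, ES cells lie above it, and the HSC library lies far below it at 59.1 TPM of Krt18 and 0.323 TPM of Krt8.

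Of the 3 claudins, Cldn4 and Cldn7 fell and Cldn6 was not called. Cldn4, a claudin of tight epithelia, had 17.2, 33.9 and 5.83 TPM in mesoderm cells, against 217, 183 and 197 TPM in ES cells, a log2 fold change of -3.11 ± 0.49 (SE; edgeR adjusted p = 0.000584). Cldn7 had 4.34, 4.03 and 1.34 TPM in mesoderm cells, against 8.31, 8.20 and 8.67 TPM in ES cells, and its log2 fold change was -0.97 ± 0.39 (SE; edgeR adjusted p = 0.0462). That call was lost with all 9 groups in 1 fit, and on leaving out mesoderm from RB3 or RB4 or any 1 ES library (adjusted p = 0.0528 to 0.103). Cldn6, an embryonic claudin, had 9.36, 13.7 and 1.98 TPM in mesoderm cells, against 17.4, 12.2 and 13.2 TPM in ES cells. These groups overlapped and no difference was called (log2 fold change -0.48 ± 0.54, SE; edgeR adjusted p = 0.429). In each of the 3 claudins the mesoderm library from RB4 was the lowest.

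Of the inhibitors, Spint1 fell and Spint2 was not called. Spint1 had 27.5, 26.7 and 19.2 TPM in mesoderm cells, against 257, 243 and 266 TPM in ES cells, a log2 fold change of -3.06 ± 0.13 (SE; edgeR adjusted p = 1.17e-07). Spint2 had 66.6, 92.9 and 71.2 TPM in mesoderm cells, against 115, 107 and 93.5 TPM in ES cells, and was not called (log2 fold change -0.13 ± 0.11, SE; edgeR adjusted p = 0.284). On the TPM scale, where the median of all genes was 0.32 lower in mesoderm, limma called Spint2 lower, with a difference of -0.45 on the log2(TPM + 1) scale (limma adjusted p = 0.0121). The ratio of Spint2 to Spint1 was 2.42 to 3.71 in mesoderm and 0.351 to 0.445 in ES cells. Of 6 tested genes among serine proteases, the growth factor Hgf that such proteases activate and its receptor Met, 3 rose and 1 fell: Prss22 and Hpn rose by 5.27 and 4.24 on the log2 scale, and St14 averaged 25.9 ± 7.90 TPM in mesoderm cells and 86.6 ± 7.20 TPM in ES cells (SD, n = 3 each; log2 fold change -1.43 ± 0.15, SE; edgeR adjusted p = 2.52e-05).

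Related genes in mesoderm against ES cells also moved in both directions. Of 6 other keratins tested, 1 rose and 4 fell, among them Krt17 (log2 fold change -4.31) and Krt7 (-2.49). Of 3 other claudins tested 1 rose and 1 fell: Cldn12 averaged 21.1 ± 1.60 TPM in mesoderm cells and 15.8 ± 2.05 TPM in ES cells, and Cldn3 averaged 0.427 ± 0.342 TPM in mesoderm cells and 8.06 ± 3.00 TPM in ES cells (SD, n = 3 each; log2 fold changes 0.74 and -3.99). Of 10 transcription and splicing factors of epithelia, 9 fell, including the ETS factor Elf3 (5.64 ± 2.16 TPM in mesoderm cells and 108 ± 1.95 TPM in ES cells, SD, n = 3 each), Klf5 (18.2 ± 2.38 and 143 ± 15.04 TPM, in the same order) and the Grainyhead factor Grhl3 (log2 fold change -2.96), while the splicing factor Esrp1 rose. Junction and polarity genes went both ways, with 11 up and 11 down of 26. The desmosome gene Dsp averaged 124 ± 48.1 TPM in mesoderm cells and 4.05 ± 0.619 TPM in ES cells, a log2 fold change of 5.24, whereas Tjp3, a tight junction scaffold, had a log2 fold change of -6.13. Of 10 mesenchymal genes, 7 rose, with Zeb2 up by 6.94 and Twist1 by 4.87 on the log2 scale, and Zeb1 fell.

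The eHB lines were compared next with sorted Kdr-positive mesoderm, a precursor of blood and endothelium. The eHB lines held little of most of the epithelial set: 9 of the 10 genes fell and 1 was not called (edgeR over 13282 genes). Over all genes 23.1% fell, 23.5% rose and 53.4% had groups that did not overlap. The median log2 fold change was -6.23 over the 10 members and 0.05 over all genes. Members such as Cldn4, Cldn6, Cldn7 and Krt8 had 2, 4, 15 and 24 counts in the eHB libraries together. They passed the filter on low counts only through mesoderm, so they could only be called lower, which weighs on the count and the median. Other lists moved in the same comparison. Pluripotent genes summed to 2.30 to 9.78 TPM in eHBs, against 403 to 603 TPM in mesoderm (4 of 5 tested fell, and Zfp42 and Dppa3 were at 0 in eHBs), fibroblast genes to 0.253 to 0.90 TPM, against 41.9 to 81.8 TPM in mesoderm (3 of 4 fell), and endothelial genes to 360 to 777 TPM in eHBs, against 141 to 155 TPM in mesoderm (6 of 7 rose). Their part in the members' fall was not tested. Mesoderm of RB3 and RB4 and the eHB lines derived from ES cells carry related names, but the labels do not pair the libraries of these groups.

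The fall of Krt8 was the deepest. Krt8 was between 0.042 and 0.347 TPM in the 5 eHB lines, against 804 to 1017 TPM in mesoderm, a log2 fold change of -12.72 ± 0.37 (SE; edgeR adjusted p = 1.05e-06). Krt18 had 0.379, 0.148 and 0.699 TPM in M5, FL4 and FL10 eHBs and 6.95 and 8.69 TPM in those of RB3.6.5 and RB4.6.9, against 438 to 678 TPM in mesoderm. Krt19 was 5.35 TPM in M5 and at most 1.32 TPM in the other eHB lines, against 57.7 to 105 TPM in mesoderm. None of these eHB values reached the mesoderm range. The log2 fold changes were -7.66 ± 1.12 for Krt18 and -6.08 ± 1.26 for Krt19 (SE; edgeR adjusted p = 0.00108 and 0.0052), and without line M5 that of Krt19 was -7.59.

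Cdh1 was 0.674 TPM in eHB line M5 and at most 0.044 TPM in the other eHB lines, against 5.10 to 16.7 TPM in mesoderm (log2 fold change -6.38 ± 1.40, SE; edgeR adjusted p = 0.00675; -9.38 without M5). Epcam was 2.23, 1.22, 0.758, 1.59 and 0.784 TPM in eHB lines RB3.6.5, RB4.6.9, M5, FL4 and FL10, against 14.2 to 30.6 TPM in mesoderm, so that it was low but at least 0.758 TPM in every eHB line (log2 fold change -4.27 ± 0.41, SE; edgeR adjusted p = 0.000168). Cldn4 had 2 counts in the 5 eHB libraries together, against 1400 in mesoderm, and a ratio of counts per total that was 1362-fold lower in eHBs, with a 95% counting interval of 377 to 11250. Cldn6 and Cldn7 were at most 0.116 and 0.265 TPM in eHBs, against 1.98 to 13.7 TPM and 1.34 to 4.34 TPM in mesoderm, with log2 fold changes of -8.18 ± 1.11 and -4.86 ± 0.58 (SE; edgeR adjusted p = 0.000781 and 0.000447). Every one of these 5 genes was lower in all 5 eHB lines than in any mesoderm library.

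The inhibitors were less clear. Spint1 had 1.70, 8.22, 0.116, 0.127 and 0.148 TPM in eHB lines RB3.6.5, RB4.6.9, M5, FL4 and FL10, against 19.2 to 27.5 TPM in mesoderm. The log2 fold change was -3.90 ± 1.31 (SE; edgeR adjusted p = 0.0384) and was -5.85 without RB4.6.9, but the call was lost without RB3.6.5, FL4 or FL10 or any 1 mesoderm library (adjusted p = 0.0526 to 0.0953). Spint2 was 48.2, 109, 14.2, 40.9 and 12.3 TPM in the same eHB lines, against 66.6, 92.9 and 71.2 TPM in mesoderm. Line RB4.6.9 lay above all 3 mesoderm libraries, the groups overlapped and no difference was called (log2 fold change -1.10 ± 0.63, SE; edgeR adjusted p = 0.184), although without RB4.6.9 it was called at -1.73 (adjusted p = 0.0191).

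Genes around the members mostly fell in eHBs as well. Of 24 junction and polarity genes tested, 16 fell and 2 rose: Dsp had a log2 fold change of -11.37 ± 0.79 and the desmosomal cadherin Dsg2 one of -8.57, whereas Ocln, the tight junction protein occludin, averaged 33.7 ± 22.4 TPM in eHBs (SD, n = 5) and 0.309 ± 0.0743 TPM in mesoderm (SD, n = 3), a log2 fold change of 6.46. Of the serine proteases, Hgf and Met 4 of 6 tested fell, with Prss22 at -7.87, Prss8 at -4.87 and St14 at -2.80 on the log2 scale. Of 10 epithelial regulators 5 fell, among them Elf3 (log2 fold change -4.17) and Klf5 (-3.00), and Grhl1 rose by 4.45 on that scale. Of the mesenchymal genes 6 of 10 fell, including Snai1, the Snail repressor, at 0.676 ± 0.0778 TPM in eHBs and 83.6 ± 4.48 TPM in mesoderm, and Twist1 (log2 fold change -6.12), and 2 rose, Zeb1 and Zeb2.

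**Figure D3:**
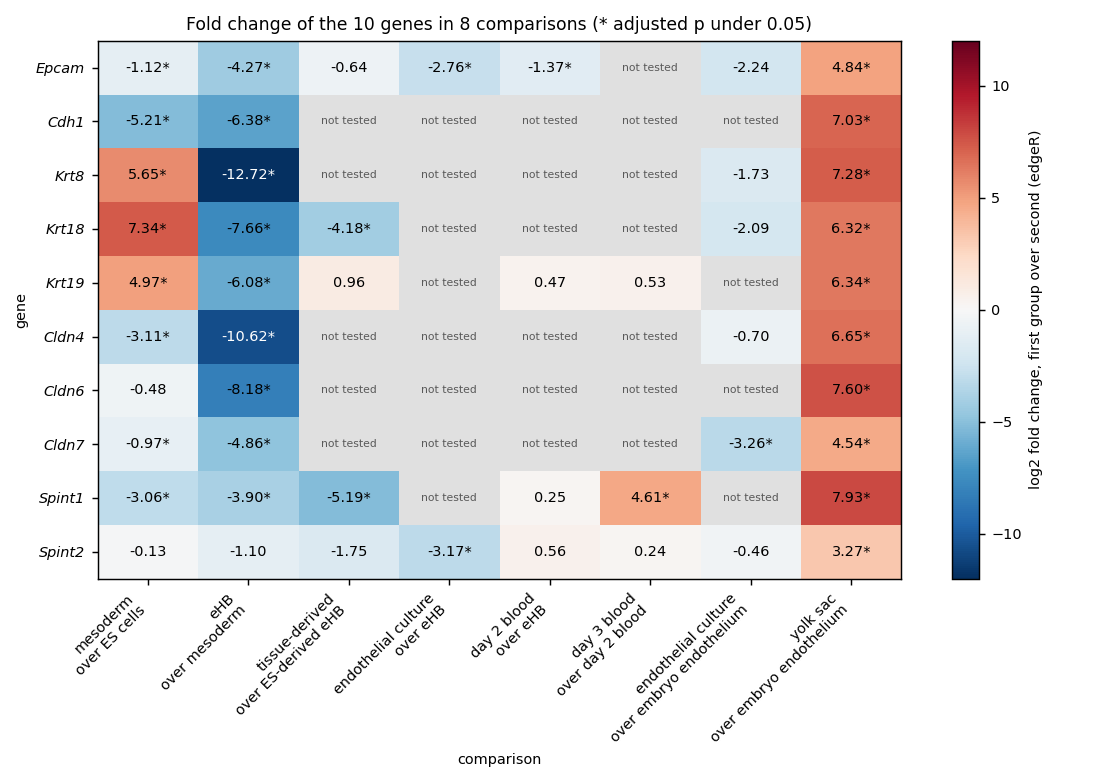
Log2 fold change of each of the 10 genes (down the page) in 8 comparisons (across), first-named group over second, from edgeR, with a star where the adjusted p was under 0.05 and grey where a gene did not pass the filter on low counts. The mesoderm column holds both colours, the eHB column is blue for every gene, and the yolk sac column is red for every gene.

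Within the eHB lines, those from fetal tissue (M5, FL4, FL10) were set against those from ES cells (RB3.6.5, RB4.6.9). Of the 10 genes, 5 passed the filter on low counts. Krt18 and Spint1 fell (edgeR), beside 7.20% of 12759 genes that fell, 4.56% that rose and 54.6% whose groups did not overlap. Both passed that filter only through the ES-derived lines, so they could only be called lower. Krt18 was 0.379, 0.148 and 0.699 TPM in M5, FL4 and FL10, against 6.95 and 8.69 TPM in RB3.6.5 and RB4.6.9 (log2 fold change -4.18 ± 0.70, SE; edgeR adjusted p = 0.0358). Spint1 was 0.116, 0.127 and 0.148 TPM in the tissue lines, against 1.70 and 8.22 TPM in the ES-derived lines (log2 fold change -5.19 ± 0.84, SE; edgeR adjusted p = 0.0344). Neither pair of groups overlapped, but both calls were lost on leaving out any 1 of the 5 lines (adjusted p = 0.0672 to 0.135), where the count over all genes was 0 to 29, against 1501 with all 5 lines. Spint2, at 14.2, 40.9 and 12.3 TPM in the tissue lines and 48.2 and 109 TPM in the ES-derived lines, did not overlap either and was not called (log2 fold change -1.75 ± 0.67, SE; edgeR adjusted p = 0.14). DESeq2 called Spint2 lower (DESeq2 adjusted p = 0.0325). The 2 sets of lines also grew in different media, so origin and medium cannot be told apart.

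Each of the 5 lines gave an eHB library and an endothelial culture, and these were set against each other. The step differed by origin. ES-derived eHBs already had the factors listed for the endothelial cultures, so loss of doxycycline was their only listed change. Tissue-derived eHBs both lost doxycycline and gained most of those factors, so for them the effects of medium and doxycycline cannot be told apart. Of the 10 genes, 8 did not pass the filter on low counts, and the 2 that were tested, Epcam and Spint2, fell (edgeR). Over all 12579 genes 35.6% fell, 34.3% rose and 57.7% had groups that did not overlap. Epcam passed that filter only through eHBs, so it could only be called lower. Spint2 was 6.08, 11.49, 1.42, 3.01 and 1.81 TPM in endothelial cultures of RB3.6.5, RB4.6.9, M5, FL4 and FL10, against 48.2, 109, 14.2, 40.9 and 12.3 TPM in the eHBs of those lines. The highest endothelial value was just under the lowest eHB value, and every line was lower (log2 fold change -3.17 ± 0.77, SE; edgeR adjusted p = 0.00393). Epcam was 0.348, 0.022, 0.282, 0.238 and 0.073 TPM in endothelial cultures, against 2.23, 1.22, 0.758, 1.59 and 0.784 TPM in eHBs, in the same order of lines, again lower in 5 of 5 (log2 fold change -2.76 ± 0.62, SE; edgeR adjusted p = 0.0025). 

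Some members outside that test had levels in single eHB lines. Spint1 was 0.141, 0.151, 0.031, 0.073 and 0.031 TPM in endothelial cultures of RB3.6.5, RB4.6.9, M5, FL4 and FL10, against 1.70, 8.22, 0.116, 0.127 and 0.148 TPM in eHBs. Krt18 was 0, 2.63, 0.115, 0.052 and 0.104 TPM in endothelial cultures, against 6.95, 8.69, 0.379, 0.148 and 0.699 TPM in eHBs, in the same order. Both genes were lower in the culture in 5 of 5 lines, although the groups overlapped. Krt19 was 0.157 TPM in the culture of M5, against 5.35 TPM in its eHBs. DESeq2, run without that filter, called Spint1 (log2 fold change -4.42; adjusted p = 0.0004) and Krt19 (-3.33; adjusted p = 0.0199) lower, but not Krt18. With all 9 groups in 1 edgeR fit Spint1 and Krt19 were called lower as well, and Cldn4 higher (log2 fold change 3.54, adjusted p = 0.0278). Cldn4 averaged 0.170 TPM in endothelial cultures and 0.0148 TPM in eHBs. It was 0.711 TPM in the culture of M5, 0.14 TPM in that of RB4.6.9 and 0 in the others, so the lines did not share a rise. Krt8 was at 1.55 TPM in the culture of RB4.6.9 and at most 0.355 TPM in the others, and Cdh1, Cldn6 and Cldn7 were at most 0.043, 0.052 and 0.327 TPM in endothelial cultures.

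Other junction genes moved in both directions in these cultures. Of 14 junction and polarity genes tested, 7 rose and 5 fell, with plakoglobin (Jup) up by 5.70 and the junctional adhesion molecule F11r up by 3.52 on the log2 scale, and Lsr at -3.98. Cldn5, the claudin of endothelium, averaged 261 ± 448 TPM in endothelial cultures and 2.38 ± 5.00 TPM in eHBs (SD, n = 5 each; log2 fold change 6.83 ± 2.10, SE; edgeR adjusted p = 0.0142), a group mean with a wide spread. All 3 other keratins tested fell, and the epithelial regulator Grhl1 fell by 5.17. Of 8 mesenchymal genes 6 rose, among them Snai1 by 4.01, Vim by 3.40 and Zeb1 by 2.80.

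Endothelial cultures were also set against freshly sorted embryo endothelium. Of 6 members that could be tested 1 fell, Cldn7 (edgeR), beside 23.4% of 13725 genes that fell (3210 genes, against 3025 that rose) and 58.5% whose groups did not overlap. Cldn7 passed the filter on low counts only through embryo endothelium, so it could only be called lower. Cldn7 averaged 0.148 ± 0.148 TPM in endothelial cultures (SD, n = 5) and 1.30 ± 0.371 TPM in embryo endothelium (SD, n = 2), a log2 fold change of -3.26 ± 1.01 (SE; edgeR adjusted p = 0.0335). The call was lost without the FL10 culture or either embryo library, and by DESeq2 (adjusted p = 0.0527). Epcam was 0.022 to 0.348 TPM in endothelial cultures, against 0.918 and 0.847 TPM in embryo endothelium, without overlap and without a call (log2 fold change -2.24 ± 0.82, SE; edgeR adjusted p = 0.057). It was called lower by limma on log2(TPM + 1) with no filter (limma adjusted p = 0.00488) and with all 9 groups in 1 fit (edgeR adjusted p = 0.00555). Spint2 overlapped, at 1.42 to 11.49 TPM in endothelial cultures, against 5.59 and 7.61 TPM in embryo endothelium, and neither it nor Krt8, Krt18 or Cldn4 was called. Without the RB4.6.9 culture Krt18 was called (log2 fold change -5.29; edgeR adjusted p = 0.00479). In that fit Krt18 passed the filter only through embryo endothelium, so it could only be called lower. With no filter on low counts Cdh1 and Cldn6 were called lower as well (log2 fold changes -4.12 and -5.58; edgeR adjusted p = 0.0266 and 0.0328). These genes had few counts, 5.08 and 1 in the cultures together, against 29.13 and 18 in embryo endothelium. Fibroblast genes summed to 0.293 to 1.03 TPM in endothelial cultures, against 34.1 to 51.7 TPM in embryo endothelium, and all 7 fell. Leukocyte genes summed to 11.49 to 141 TPM in endothelial cultures, against 215 to 306 TPM in embryo endothelium, and 6 of 8 fell and 1 rose. Visceral endoderm genes summed to 13.6 to 21.97 TPM in endothelial cultures and 11.4 to 21.8 TPM in embryo endothelium. Single genes of that list differed: of 7 tested 4 fell (Afp, Apoa1, Apob and Ihh) and 1 rose (Cubn). Of its 16 genes, 1 averaged at least 1 TPM in endothelial cultures and 3 did so in embryo endothelium. The part of fibroblast, leukocyte or visceral endoderm RNA in the members' differences was not tested.

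Day 2 blood cultures held little of most members. Of 4 members tested against eHBs 1 fell, Epcam, beside 25.5% of 12269 genes that fell, 28.5% that rose and 49.3% whose groups did not overlap (edgeR). Epcam was 0.367, 0.235, 0.061, 0.506 and 0.430 TPM in day 2 blood of RB3.6.5, RB4.6.9, M5, FL4 and FL10, against 2.23, 1.22, 0.758, 1.59 and 0.784 TPM in eHBs (log2 fold change -1.37 ± 0.52, SE; edgeR adjusted p = 0.0461). Each line was lower and the groups did not overlap, but the call was lost in 8 of the 10 fits that left out a library and with no filter on low counts. Epcam passed that filter only through eHBs, so it could only be called lower. Spint2 was 70.5, 96.1, 7.03, 21.1 and 29.96 TPM in day 2 blood in the same order and was not called (log2 fold change 0.56 ± 0.69, SE; edgeR adjusted p = 0.514). Spint1 averaged 1.45 ± 0.888 TPM in day 2 blood and 2.06 ± 3.51 TPM in eHBs (SD, n = 5 each) and was not called either (log2 fold change 0.25 ± 1.15, SE; edgeR adjusted p = 0.866), nor was Krt19 (log2 fold change 0.47; edgeR adjusted p = 0.787). Krt18, which did not pass the filter, averaged 0.278 TPM in day 2 blood and 3.37 TPM in eHBs, and DESeq2 called it lower (log2 fold change -3.03; adjusted p = 0.0161). Cdh1 was at most 0.031 TPM and Cldn4 at most 0.071 TPM in day 2 blood. Cldn6 had no count in either blood group, of 92772104 counts on day 3 and 103024665 on day 2, where 3 counts in a group is the limit that a count of 0 allows.

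Day 3 blood was sorted as CD45-positive and day 2 blood as CD45-negative, so culture day and sort cannot be told apart. Spint1 was higher in day 3 blood, and the other members that passed the filter on low counts, Spint2 and Krt19, were not called. Spint1 was 21.1, 20.0, 109, 16.1 and 27.2 TPM in day 3 blood of RB3.6.5, RB4.6.9, M5, FL4 and FL10, against 2.06, 0.838, 2.64, 0.486 and 1.23 TPM in day 2 blood. Every day 3 library was above every day 2 library, and the difference was seen in 5 of 5 lines. The log2 fold change was 4.61 ± 0.76 (SE; edgeR adjusted p = 0.00559), in a comparison where 7.31% of 12084 genes rose, 2.87% fell and 9.35% had groups that did not overlap. Without the M5 day 3 library, by far the highest, it was 3.72 (adjusted p = 0.00571). Spint2 averaged 52.6 ± 24.5 TPM in day 3 blood and 44.9 ± 37.1 TPM in day 2 blood (SD, n = 5 each) and was not called (log2 fold change 0.24 ± 0.59, SE; edgeR adjusted p = 0.828), and neither was Krt19 (log2 fold change 0.53; edgeR adjusted p = 0.77).

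Cdh1 did not pass the filter but was higher on day 3 in 5 of 5 lines. It was 0.489, 0.349, 0.031, 0.426 and 3.802 TPM in day 3 blood of RB3.6.5, RB4.6.9, M5, FL4 and FL10, against 0.020, 0, 0, 0.010 and 0.031 TPM in day 2 blood. FL10 stood far above the other lines on day 3, and M5 on day 3 was level with FL10 on day 2. Cdh1 was called higher by DESeq2 (log2 fold change 6.36; adjusted p = 9.87e-05), by edgeR with no filter (log2 fold change 6.4; adjusted p = 0.025) and with all 9 groups in 1 fit (6.33; adjusted p = 0.0023). The other 6 members were not called in either direction under any of the settings tried.

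St14, the matriptase gene whose product Spint1 inhibits, rose alongside it. St14 was 14.9, 32.6, 13.5, 21.1 and 26.1 TPM in day 3 blood of RB3.6.5, RB4.6.9, M5, FL4 and FL10, against 2.33, 0.786, 0.193, 0.294 and 0.993 TPM in day 2 blood, a log2 fold change of 4.49 ± 0.58 (SE; edgeR adjusted p = 0.00192). All 5 lines rose, and the groups were well apart. As a ratio of TPM on day 3 to that on day 2, both genes rose most in M5 (41.2 for Spint1 and 69.9 for St14) and FL4 (33.1 and 71.6) and least in RB3.6.5 (10.2 and 6.42). These ratios rest on low day 2 levels. On the log2(TPM + 1) scale Spint1 rose by 4.92 in M5, 3.66 in FL10, 3.53 in FL4, 3.51 in RB4.6.9 and 2.85 in RB3.6.5. The place of FL4 thus depended on the scale. On day 3 itself M5 had the highest Spint1 and the lowest St14. St14 was 1 of 4 genes tested among the serine proteases, Hgf and Met, and the other 3 were not called. Of the other related genes, none of 15 junction and polarity genes, 3 regulators, 2 keratins or 6 mesenchymal genes was called by edgeR, and the claudin Cldn15 rose. Leukocyte marker genes, summed, came to 3439 to 6208 TPM in day 3 blood, against 636 to 1538 TPM in day 2 blood, and their part in the Spint1 rise was not tested.

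**Figure D4:**
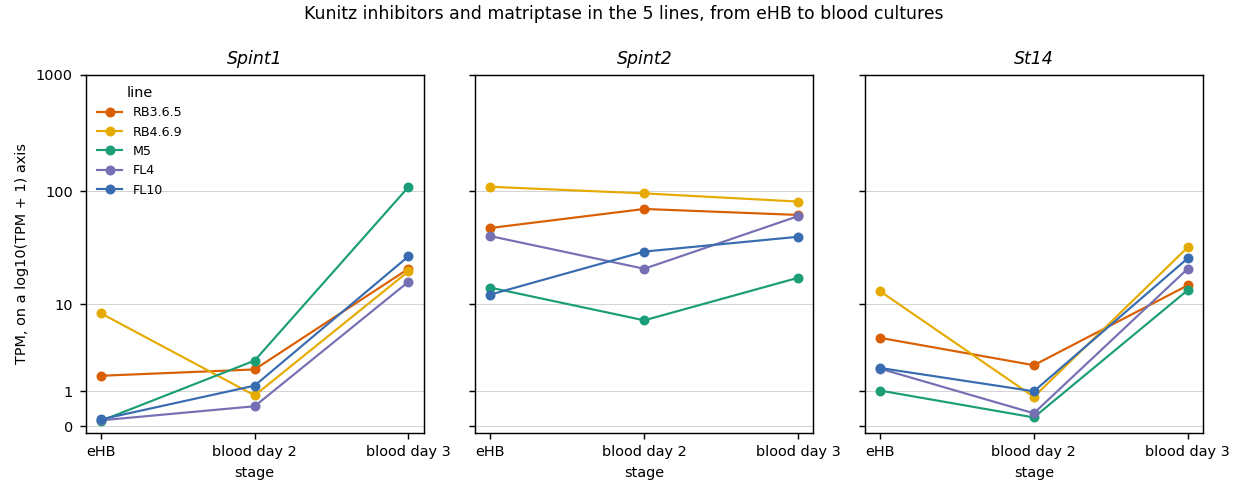
Spint1, Spint2 and St14 in TPM on a log10(TPM + 1) axis in eHBs, day 2 blood and day 3 blood, with 1 line per cell line. Spint1 and St14 are higher in day 3 than in day 2 blood in all 5 lines, at 16.1 to 109 TPM and 13.5 to 32.6 TPM on day 3. Spint2 stays between 7.03 and 109 TPM with no direction shared by the 5 lines.

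The single HSC library was read beside day 3 blood, the other CD45-positive cells, with no replicate and so no test. Above the day 3 range by over 1 on the log2(TPM + 1) scale stood 5 members and below it stood 2, beside 34.1% of 12925 genes above and 7.36% below. Krt18 was 59.1 TPM in HSCs, against 0 to 5.77 TPM in day 3 blood, while its partner Krt8 was 0.323 TPM in HSCs, against 0.113 to 0.624 TPM in day 3 blood, so the HSC library held 183 times as much Krt18 as Krt8. Spint2 was 194 TPM in HSCs, against 17.5 to 81.7 TPM in day 3 blood. Epcam, Cldn4 and Cldn7 were 4.04, 3.99 and 3.47 TPM in HSCs, against at most 0.561, 0.214 and 0.704 TPM in day 3 blood. Spint1 ran the other way, at 1.12 TPM in HSCs, against 16.1 to 109 TPM in day 3 blood, and Krt19 was listed at 0 in HSCs, against 0.644 to 3.72 TPM in day 3 blood. Cdh1, at 0.205 TPM in HSCs, lay within the range of the 5 day 3 libraries, and Cldn6 was listed at 0 in both. Fibroblast genes summed to 35.849 TPM in HSCs, against at most 1.768 TPM in day 3 blood. Mesothelial genes summed to 13.042 TPM, against at most 1.397 TPM, and endothelial genes to 1408.74 TPM, against at most 775.157 TPM. Leukocyte genes were lower in HSCs, and visceral endoderm genes lay within the day 3 range. The part of such RNA in the members' HSC levels was not tested.

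Yolk sac endothelium and embryo endothelium, sorted on the same surface proteins at E11.5, differed in every one of the 10 genes. All 10 rose in yolk sac (edgeR), beside 15.9% of 13673 genes that rose and 8.54% that fell, and the median log2 fold change was 6.49 over the 10 members and -0.03 over all genes. The groups overlapped for none of the 10, beside 60.1% of all genes without overlap at 2 libraries a side. Members such as Spint1, Cldn4 and Cldn6 had 4, 13 and 18 counts in the embryo libraries together. They passed the filter on low counts only through yolk sac, so they could only be called higher. Nothing in the labels says that the 2 libraries of a group came from separate animals, so the p-values measure the spread between these libraries, which may be technical.

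Among the keratins, Krt8 was 252 and 194 TPM in yolk sac, against 2.13 and 0.372 TPM in embryo endothelium, and Krt18 was 220.2 and 207 TPM in yolk sac, against 2.30 and 2.93 TPM in embryo endothelium. Krt19 was 46.0 and 21.4 TPM in yolk sac, against 0.423 and 0.341 TPM in embryo endothelium. Their log2 fold changes were 7.28 ± 0.69, 6.32 ± 0.23 and 6.34 ± 0.47 (SE; edgeR adjusted p = 0.000893, 1.86e-07 and 8.54e-06). Keratins 8 and 18 were at nearly equal TPM in yolk sac, with a ratio of 0.937 to 1.14.

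Epcam was 27.9 and 25.05 TPM in yolk sac, against 0.918 and 0.847 TPM in embryo endothelium, and Cdh1 was 44.4 and 26.8 TPM in yolk sac, against 0.392 and 0.093 TPM in embryo endothelium (log2 fold changes 4.84 ± 0.29 and 7.03 ± 0.49, SE; edgeR adjusted p = 2.39e-06 and 1.1e-05). Cldn6 led the claudins, at 105 and 80.8 TPM in yolk sac, against 0.784 and 0 TPM in embryo endothelium (log2 fold change 7.60 ± 0.66, SE; edgeR adjusted p = 0.000219). Cldn6 was 55.9% to 65.7% of the summed TPM of the 3 claudins in yolk sac, 21.7% to 30.3% in mesoderm and 6.00% to 7.19% in ES cells. Cldn4 averaged 28.9 ± 5.93 TPM in yolk sac and 0.253 ± 0.211 TPM in embryo endothelium, and Cldn7 averaged 30.3 ± 0.519 TPM and 1.30 ± 0.371 TPM in that order (SD, n = 2 each; log2 fold changes 6.65 ± 0.48 and 4.54 ± 0.33, SE; edgeR adjusted p = 6.94e-06 and 8.15e-06).

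Of the inhibitors, Spint1 was 18.9 and 16.8 TPM in yolk sac, against 0.031 and 0.124 TPM in embryo endothelium, and Spint2 was 63.9 and 65.7 TPM in yolk sac, against 5.59 and 7.61 TPM in embryo endothelium (log2 fold changes 7.93 ± 0.46 and 3.27 ± 0.22, SE; edgeR adjusted p = 1.88e-06 and 4.56e-06). Spint2 had the smallest log2 fold change of the 10 and the highest level in embryo endothelium. With all 9 groups in 1 fit, the Krt18 and Spint2 calls were lost (adjusted p = 0.0621 and 0.0729).

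Other genes of epithelia were high in the yolk sac libraries too. Prss8, the protease prostasin, averaged 58.0 ± 3.26 TPM in yolk sac and 0.067 ± 0.0509 TPM in embryo endothelium (SD, n = 2 each; log2 fold change 9.77), Tmprss2 had a log2 fold change of 10.46 and St14 one of 3.21, among 5 that rose of 7 tested serine proteases, Hgf and Met. Of 8 other claudins 5 rose and 1 fell: Cldn2, a claudin of leaky epithelia, averaged 24.6 ± 4.64 TPM in yolk sac and had no count in embryo endothelium, at least 579-fold higher against a floor of 3 counts over the group. Of 5 other keratins 3 rose, with Krt7 at 37.8 ± 1.32 TPM in yolk sac and 0.557 ± 0.336 TPM in embryo endothelium and Krt20 at 17.9 ± 1.93 TPM in yolk sac and 0.804 ± 0.378 TPM in embryo endothelium. Of 7 regulators 6 rose, Elf3 by 4.93 on the log2 scale, and of 23 junction and polarity genes 15 rose and 2 fell. The neural and mesenchymal cadherin Cdh2 fell, at 4.91 ± 0.791 TPM in yolk sac and 78.0 ± 13.04 TPM in embryo endothelium (log2 fold change -4.03).

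Markers of other cells moved with these values. Of 16 visceral endoderm genes, 15 averaged at least 1 TPM in yolk sac and 3 did so in embryo endothelium, with summed levels of 11837 to 12223 TPM in yolk sac, against 11.4 to 21.8 TPM in embryo endothelium. None of the 16 was at 0 in either group, and Afp, the alpha-fetoprotein gene of that tissue, stood at 7385 to 7392 TPM in yolk sac. Fibroblast genes summed to 1200 to 1250 TPM in yolk sac, against 34.1 to 51.7 TPM in embryo endothelium, and mesothelial genes to 22.9 to 25.6 TPM, against 5.89 to 5.99 TPM. The endothelial list was about level, at 8260 to 9437 TPM in yolk sac and 7102 to 8406 TPM in embryo endothelium. The part of visceral endoderm RNA in the epithelial levels of the yolk sac libraries was not tested.

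**Figure D5:**
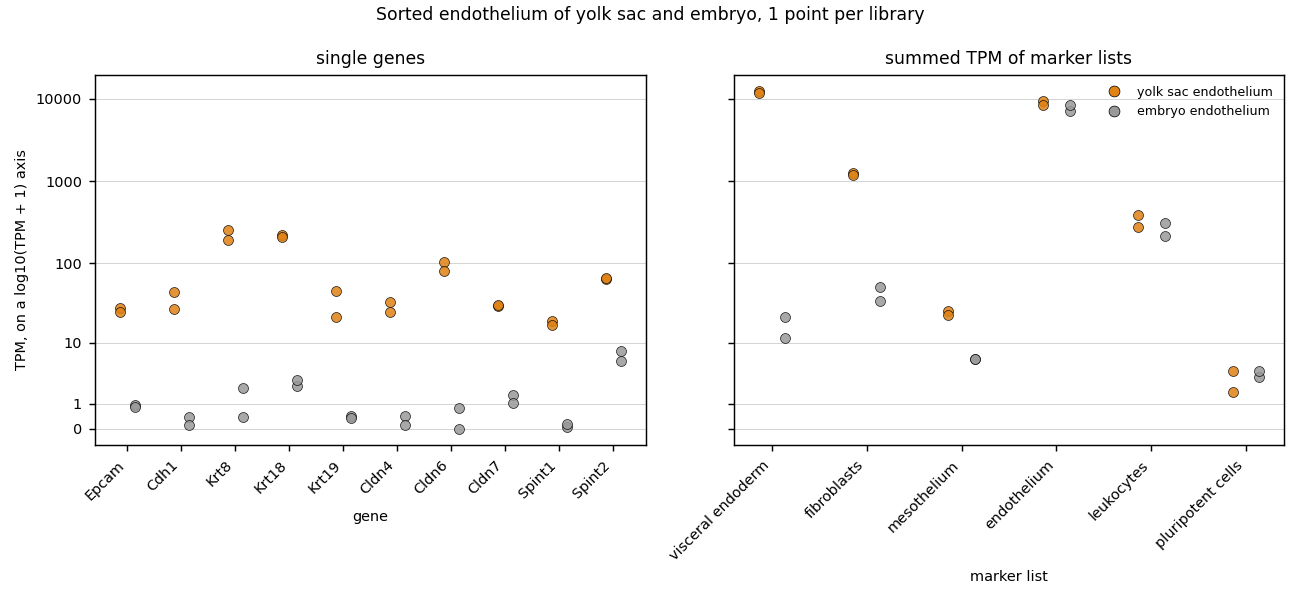
Left, TPM of the 10 genes, and right, summed TPM of 6 marker lists, in the 2 yolk sac and the 2 embryo endothelium libraries, on log10(TPM + 1) axes with 1 point per library. All 10 genes are higher in both yolk sac libraries, the visceral endoderm list is at least 11837 TPM there and at most 21.8 TPM in embryo endothelium, and the endothelial list is similar in both.

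Across the 31 libraries the members followed each other to different degrees. On the log2(TPM + 1) scale, the highest correlations were 0.963 between Epcam and Cldn4 and between Cdh1 and Cldn4, and 0.951 between Cldn6 and Cldn7. Krt8 correlated at 0.911 with Krt19 and 0.887 with Krt18, and the lowest pair was Krt18 and Spint1 at 0.363. These are descriptions over libraries that share cell lines and culture series. Among 12851 genes with a group mean of at least 5 TPM, those closest to the mean of the 10 members, the members themselves left out, were Ggt1 (0.969), Dnajc22 (0.968), Cyp2s1 (0.968), Ap1m2 (0.965), which encodes an epithelial sorting adaptor subunit, and Prss8 (0.957). St14 was close to Spint1 at 0.936, Dsp to Krt8 at 0.948, Myh14 to Cldn6 at 0.974 and Erbb3 to Cldn4 at 0.979. No gene was as close to Spint2, whose best match was Dlg3 at 0.866.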

How the data were processed

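Gene expression was measured by RNA-seq in 31 libraries of 9 groups, made from total RNA with the TruSeq RNA kit, per the labels' protocols. The authors deposited 2 tables of 20314 genes, 1 of expected counts and 1 of renormalised TPM, per the file headers. The submitters' processing notes name CASAVA 1.8.2, Bowtie 0.12.9, RSEM 1.2.3 and the mm10 build, and the strand setting is not given in the sources used here. How the authors renormalised the deposited TPM values is likewise not given.

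Groups followed the sample titles. Expected counts were rounded to whole numbers and tested in R 4.3.3 with edgeR 4.0.16 (TMM scaling, filterByExpr, robust quasi-likelihood fit) on the libraries of each comparison, and p-values were adjusted by Benjamini-Hochberg over all genes tested with a threshold of 0.05. Alternatives were RLE scaling, DESeq2 1.42.0, no filter, limma 3.58.1 on log2(TPM + 1) or log2(TPM + 0.1), all 9 groups in 1 fit, the line or replicate number as a block, and each library left out in turn. The edgeR procedure was tested on simulated data. Counting intervals are exact at 95% and, like the limit of 3 counts set on a count of 0, cover counting error only. Within groups, 48 pairs of libraries had mean chi-square values of 4.16 to 568 per gene, well above the sampling noise of a repeated library.

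The members and gene lists were chosen with earlier results of these data known. From each list, up to 4 called genes with the largest change and a group mean of at least 5 TPM were named. Likeness was Pearson's correlation of log2(TPM + 1) over 31 libraries, searched outside the members. Cultures of 1 name come from 1 cell line, which pairs them; deviations of same-named libraries from their group means correlated at 0.28 to 0.43 between endothelial cultures and eHBs, 0.06 to 0.26 between day 2 blood and eHBs, -0.03 to 0.68 between day 3 and day 2 blood, and -0.06 to 0.08 between mesoderm and ES cells.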

Additional observations from a re-analysis of the deposited data

Results flagged for a closer look

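Each group of 4 to 10 libraries whose highest value passed 1 TPM was examined for a library far from its neighbours, by the gap to the nearest value over the range of the group. Of 16 such groups 7 had one. Chance gives about 1 in 20 only where groups are taken without regard to their highest value, and in 4 of the 7 only the distant library itself passed 1 TPM, so that rate does not apply here. Line M5 was apart in a pair of genes. Its day 3 blood had 108.942 TPM of Spint1, against 16.1 to 27.2 TPM in the other lines, and its eHBs had 5.349 TPM of Krt19, against 0 to 1.32 TPM. Line RB4.6.9 had 8.216 TPM of Spint1 as eHBs, against 0.116 to 1.70 TPM in the other lines, and its endothelial culture had 1.549 TPM of Krt8 and 2.626 TPM of Krt18, against at most 0.355 and 0.115 TPM in the others. Day 3 blood of FL10 had 3.802 TPM of Cdh1, against 0.031 to 0.489 TPM, and that of RB3.6.5, the shallowest library, had 5.771 TPM of Krt18, against 0 to 0.521 TPM. The cause of these values was not tested.

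The Spint2 difference between day 3 and day 2 blood ran in opposite directions by origin. On the log2(TPM + 1) scale it was -0.17 in RB3.6.5 and -0.23 in RB4.6.9, the ES-derived lines, and 1.205 in M5, 1.49 in FL4 and 0.42 in FL10, so the mean change of the ES-derived lines minus that of the tissue-derived lines was -1.238. This difference between origins was not tested.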

How the results depend on the processing

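Of 384 values of single genes recomputed under the other settings, 361 kept their direction and their side of the threshold, 11 lost and 6 gained a call, and 6 turned direction without a call on either side; on leaving out 1 library at a time, 291 of 334 were kept, 32 lost and 2 gained a call, and 9 turned direction, again without a call. By limma the difference of Spint2 in day 2 blood was -0.0563 on log2(TPM + 1), with or without a filter, and -0.0658 on log2(TPM + 0.1), against an edgeR log2 fold change of 0.56, and that of Krt19 in tissue-derived eHBs was -0.027 on log2(TPM + 1), with or without a filter, and -1.20 on log2(TPM + 0.1), against 0.96. Leaving out 1 library, Spint1 in day 2 blood ran from -0.25 to 2.23 (0.47 at most with line RB4.6.9 kept among the eHBs), Spint2 in day 3 blood from -0.0157 to 0.64 (0.47 without M5 of day 3), Krt8 and Cldn4 in endothelial cultures against embryo endothelium from -2.53 to 0.24 and from -1.38 to 0.79, and Krt19 in tissue-derived eHBs from -5.42 without M5 to 1.73, with 1.57 without FL4. Krt19 in day 3 blood was -0.0648 without RB3.6.5 of day 3. Counts of members moved as follows. In mesoderm against ES cells 3 fell with all 9 groups in 1 fit. In endothelial cultures against eHBs 4 fell by DESeq2, and 4 fell and 1 rose with all 9 groups. In day 2 blood against eHBs 2 fell by DESeq2, 0 with no filter and 2 with all 9 groups. In day 3 against day 2 blood 2 rose by DESeq2, with no filter and with all 9 groups. In endothelial cultures against embryo endothelium 0 fell by DESeq2, and 3 with no filter, by limma with no filter and with all 9 groups. In tissue-derived against ES-derived eHBs 1 fell by limma on log2(TPM + 1), with or without a filter, and with all 9 groups. Counts over all genes moved to 2657 (DESeq2), 772 (limma, no filter) and 3674 (all 9 groups) from 1230 in day 3 against day 2 blood, to 590 (all 9 groups) from 3343 in yolk sac against embryo endothelium, and to 4024 (DESeq2) from 1501 in tissue-derived against ES-derived eHBs. The cause was not tested.

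With the replicate block no member's call changed: 3 rose and 5 fell in mesoderm, 2 fell in endothelial cultures, 1 fell in day 2 blood, 1 rose in day 3 blood and 10 rose in yolk sac. The labels do not say whether the yolk sac and embryo numbers mark shared animals. Deviations of the libraries so numbered correlated at -0.14, which cannot settle it with 2 libraries a group. The crossed pairing was therefore added after seeing the data. It called 8 members and 5139 genes, against 2974 genes with the block as numbered. No paired analysis was possible for eHBs against mesoderm and endothelial cultures against embryo endothelium, because these groups share no replicate names.

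Leaving out 1 library at a time, the members that fell numbered 4 to 5 (with 3 that rose) in mesoderm against ES cells, 8 to 10 in eHBs against mesoderm, 2 in endothelial cultures against eHBs, 0 to 2 in day 2 blood against eHBs, 0 to 2 in endothelial cultures against embryo endothelium and 0 in tissue-derived against ES-derived eHBs. Those that rose numbered 1 to 2 in day 3 blood and 10 in yolk sac. Over all genes these fits called 10078 to 11233, 4450 to 6358, 8441 to 8754, 5828 to 6772, 3415 to 6512, 0 to 29, 657 to 1930 (1130 without day 2 blood of M5) and 2391 to 4249 genes in that order.

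On the TPM scale the median log2 change of all genes shifted by -0.32 in mesoderm, 0.29 in eHBs against mesoderm, -0.66 in day 2 blood and 0.11 in day 3 blood, and the share of called genes that were higher became 37.1%, 70.2%, 23.2% and 82.3%, against 49.4%, 50.4%, 52.7% and 71.8% with TMM scaling. In day 3 blood that share was 57.2% by DESeq2 and 47.9% with all 9 groups, and in yolk sac it was 79.3% with all 9 groups, against 65.1%. With 2 to 5 libraries a group, members that did not pass the filter on low counts had no edgeR value in that comparison (4 to 8 of the 10 in 5 comparisons), and the calls that other settings gave them stand beside those comparisons; for Cldn6 in blood, with no count, a difference was not detectable at this depth.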

Other observations

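Outside the 10 genes themselves, single members had closest companions that belong to other systems, chosen by rank of correlation over the 31 libraries and given as description. All 3 keratins had secretin (Sct) as their closest gene, at 0.954 for Krt8, 0.917 for Krt19 and 0.897 for Krt18. Epcam was closest to Fmr1nb (0.969) and Cdh1 to Tex19.1 (0.977), a gene of pluripotent and germ cells. Cldn7 was closest to Arhgef16 at 0.950, just under its correlation of 0.951 with Cldn6.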
